A study of Mus musculus with 6 samples.

Results

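Removal of human APOE3 from astrocytes was examined in mice with P301S tau by setting nuclei of 1 tamoxifen-treated library (TAFE3_tam) against nuclei of 1 oil-treated library (TAFE3_oil). Nuclei were taken with at least 500 UMIs (unique molecular identifiers, each a counted RNA molecule), at least 300 genes and at most 5% of UMIs from mitochondrially encoded genes. These limits kept 22448 nuclei, 11631 with oil and 10817 with tamoxifen, of 96252 barcodes in all 6 libraries of the series. After 1082 and 936 likely doublets were left out, 10549 and 9881 nuclei were used, together 20430 of the 69225 used in the whole series.

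All mice were of strain B6 and 9 months old. Both groups carried P301S tau, floxed human APOE3 (APOE3 fl/fl) and a Cre that the labels spell Aldh1la1CreERT, and they differed in treatment, oil or tamoxifen. CreERT is a recombinase that enters the nucleus once tamoxifen binds it, and Aldh1l1, which the driver's name resembles, is a folate enzyme gene of astrocytes. Tamoxifen and the deletion came together, so effects of the drug and of losing APOE3 cannot be told apart. A library of APOE3 fl/fl mice without tau, Cre or treatment (FE3) and the corresponding APOE4 pair (TAFE4_oil and TAFE4_tam, P301S APOE4 fl/fl Aldh1la1CreERT) are quoted beside the main values. The labels name hippocampus in titles and the left hemisphere in the protocol. How many animals a library holds is not stated in the labels.

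APOE is the main lipid carrier that brain cells secrete, made chiefly by astrocytes and, in disease, by activated microglia. It moves cholesterol and phospholipid between cells through receptors of the LDL receptor family, and the human alleles differ in their association with Alzheimer's disease. P301S is a mutation of tau that causes frontotemporal dementia in people and tau aggregates, gliosis and neuron loss in mice.

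With 1 library a side there is no test between animals, and the 95% intervals in square brackets cover counting error only. Values are counts of a gene scaled to the total UMIs of its cell class (CPM, counts per 1e6 UMIs), and ratios are log2 of tamoxifen over oil. The oil library held 14885 barcodes and 39599801 UMIs and the tamoxifen library 14762 and 39050503, with medians of 2320 and 2286.5 UMIs per barcode. The median mitochondrial share was 2.01% with oil and 2.81% with tamoxifen, and 21.9% and 26.7% of barcodes lay above the limit. The libraries shared 65 barcode sequences, within the range of 65 to 83 over all pairs of libraries. Nuclei of all 6 libraries were clustered together and named from a table of markers, and 13 classes with at least 50 nuclei in both libraries were compared.

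Human APOE was lower with tamoxifen in astrocytes and not in microglia. In astrocytes, 325 nuclei with oil held 16403 CPM and 344 nuclei with tamoxifen 5275 CPM, which is 32.2% [31.0 to 33.4] of the oil level and a log2 ratio of -1.64 [-1.69 to -1.58]. The FE3 astrocytes, at 12047 CPM, stood closer to the oil library. In microglia the same transcript stood at 16312 CPM with oil and 17656 CPM with tamoxifen, a log2 ratio of 0.11 [0.08 to 0.15]. Both tau libraries stood far above FE3 microglia, which had 1477 CPM (173 nuclei). Oligodendrocyte precursors kept 5210 and 4923 CPM, a log2 ratio of -0.08 [-0.17 to 0.01]. Reads assigned to mouse Apoe moved alike, from 1456 to 425 CPM in astrocytes (-1.78 [-1.96 to -1.59]) and from 1806 to 2129 CPM in microglia (0.24 [0.13 to 0.34]). The human and mouse genes are close orthologues, and how far their reads can be told apart was not tested.

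Lower APOE was also found in vascular nuclei, oligodendrocytes and neurons. Pericytes or smooth muscle cells, which wrap vessels, held 4319 CPM with oil and 1427 CPM with tamoxifen (-1.60 [-1.89 to -1.31]). Endothelial nuclei had 6006 and 3516 CPM (-0.77 [-0.89 to -0.66]), and oligodendrocytes 4137 and 3247 CPM (-0.35 [-0.42 to -0.28]). In the 5 neuronal classes other than Cajal-Retzius, APOE ran from 724 CPM in CA2 or CA3 neurons to 1391 CPM in granule neurons with oil. The log2 ratios of these 5 classes were -0.86 to -0.71. Neurons make little APOE, and at these low levels expression and free RNA in the droplets cannot be told apart. Over all used nuclei APOE stood at 2671 CPM with oil and 1411 CPM with tamoxifen. Aldh1l1 itself, in astrocytes, had 98.4 and 85.6 CPM. In the APOE4 pair, astrocytes held 19581 CPM with oil and 5270 CPM with tamoxifen (-1.89), and microglia 26198 and 21224 CPM (-0.30).

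**Figure D1:**
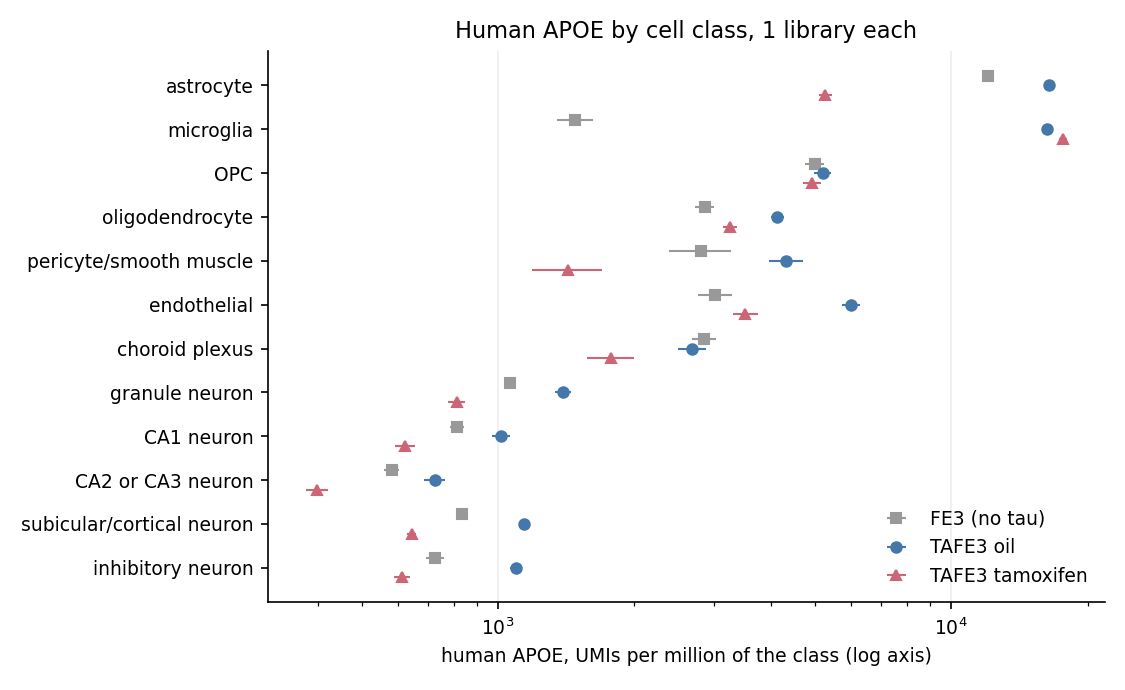
Human APOE in CPM (log axis) in 12 classes of nuclei, in FE3 (grey squares), the oil library (blue circles) and the tamoxifen library (red triangles), with exact 95% intervals for counting error. Astrocytes stand at 16403 CPM with oil and 5275 CPM with tamoxifen, while the 2 microglia points, 16312 and 17656 CPM, lie close together.

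The lower sum in astrocytes came with a wide spread among nuclei. Each nucleus was thinned to 1000 UMIs, which kept 307 astrocytes with oil and 326 with tamoxifen and left out 18 of each. The median was 14 APOE UMIs with oil and 2 with tamoxifen. No APOE UMI was found in 0 of 307 nuclei with oil, which allows a share of up to 1.19% by the exact interval, and in 70 of 326 nuclei with tamoxifen (21.5% [17.1 to 26.3]). A count of at least 5 UMIs was reached by 85.7% [81.2 to 89.4] with oil and 26.1% [21.4 to 31.2] with tamoxifen. The tamoxifen astrocytes thus held both nuclei at or near 0 and a minority near the oil level, since their upper 10% began at 16 UMIs, above the oil median.

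Granule neurons gave the counts of a class that should hold little APOE. At the same depth, 76.1% of granule neurons with oil and 57.7% with tamoxifen held at least 1 APOE UMI, with a median of 1 UMI in both. For at least 5 UMIs these shares were 2.07% and 0.450%, far under the 26.1% of tamoxifen astrocytes. Before thinning, at least 1 UMI was seen in 99.7% and 90.4% of astrocytes, at median depths of 1848 and 1622 UMIs, against 2361 and 2343 in granule neurons. Of the 243 and 156 microglia deep enough, 77.4% with oil and 74.4% with tamoxifen reached at least 5 UMIs, and of precursors 56.1% and 52.8%. In the APOE4 pair 90.6% and 21.3% of astrocytes did so.

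**Figure D2:**
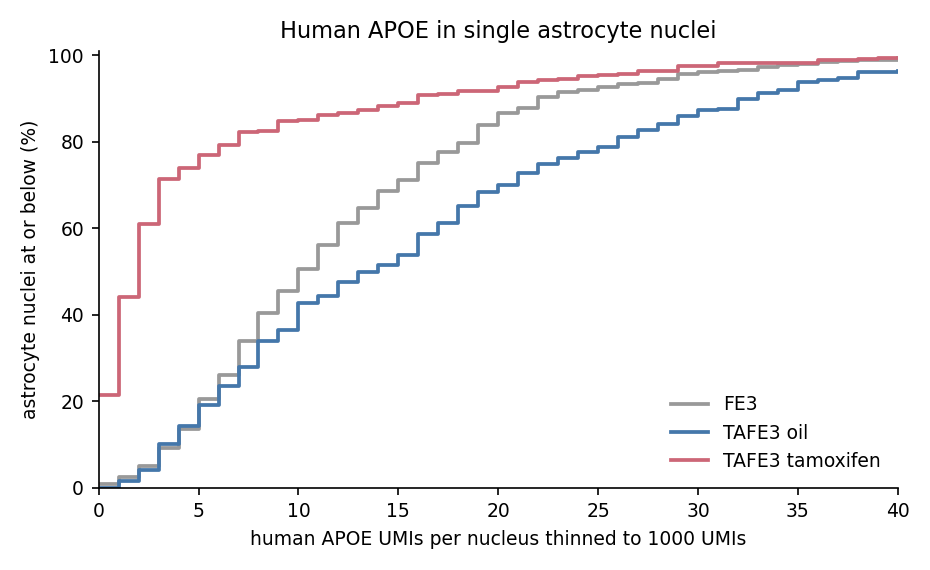
Cumulative share of astrocyte nuclei (percent) at or below a number of APOE UMIs, with every nucleus thinned to 1000 UMIs, for FE3 (grey), the oil library (blue, 307 nuclei) and the tamoxifen library (red, 326 nuclei). The tamoxifen curve starts at 21.5% at 0 UMIs where the oil curve starts at 0, and the medians are 2 and 14 UMIs.

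The make-up of the nuclei differed between the libraries. Hippocampal excitatory neurons (granule, CA1 and CA2 or CA3) were 15.7% of nuclei with oil and 25.2% with tamoxifen, 1.61-fold higher and a log2 ratio of 0.69 [0.60 to 0.78]. Granule neurons, the principal cells of the dentate gyrus, went from 6.93% to 11.4%, CA1 neurons from 4.97% to 7.66% and CA2 or CA3 neurons from 3.75% to 6.2%. Among themselves the 3 classes kept their proportions, with granule neurons 44.3% and 45.0% of them. FE3 held 47.7% of its nuclei in these classes, above both.

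Subicular or cortical excitatory neurons made up 36.0% with oil and 32.5% with tamoxifen, but their clusters went different ways. The cluster with Cux2 and Rorb, genes of upper cortical layers, was 18.8% with oil and 10.9% with tamoxifen (-0.79 [-0.90 to -0.68]). The cluster led by Dlk1 and Etv1 was 2.60% and 6.35% (1.29 [1.08 to 1.5]), and that with Tshz2 was 3.34% and 5.58% (0.74 [0.55 to 0.94]). Clusters of this class thus stood on either side of 0, and neuron numbers and how much of each region was dissected cannot be told apart. Inhibitory neurons were 10.5% and 11.4%.

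Among glia, astrocytes were 3.08% with oil and 3.48% with tamoxifen, with an interval of the log2 ratio that includes 0 (0.18 [-0.05 to 0.40]). Without the mitochondrial limit and with nuclei clustered again, 525 and 682 astrocytes were found, 4.00% and 5.24% of nuclei. Of these astrocytes, 38.3% with oil and 51.3% with tamoxifen lay above 5% mitochondrial UMIs. Oligodendrocytes were 7.06% and 8.83% (0.32 [0.18 to 0.46]) and their precursors 2.59% and 2.67%. At a limit of 1% mitochondrial UMIs the directions turned, to -1.38 for oligodendrocytes, -1.14 for astrocytes and -1.66 for precursors. Microglia were 8.92% and 5.80% (-0.62 [-0.77 to -0.47]), but this value differed between settings of the mitochondrial limit. At the limit of 1% it was -1.08. Without the limit and with nuclei clustered again 1421 and 1381 microglia were found, 10.8% and 10.6% of nuclei, and 36.8% of them with oil and 60.6% with tamoxifen lay above 5% mitochondrial UMIs. T cells numbered 18 and 4 nuclei within the limit, and 57 and 41 without it. Border macrophages, which line vessels and meninges, numbered 47 and 22. An unnamed cluster led by haemoglobin genes held 5.21% of nuclei with oil and 1.11% with tamoxifen.

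**Figure D3:**
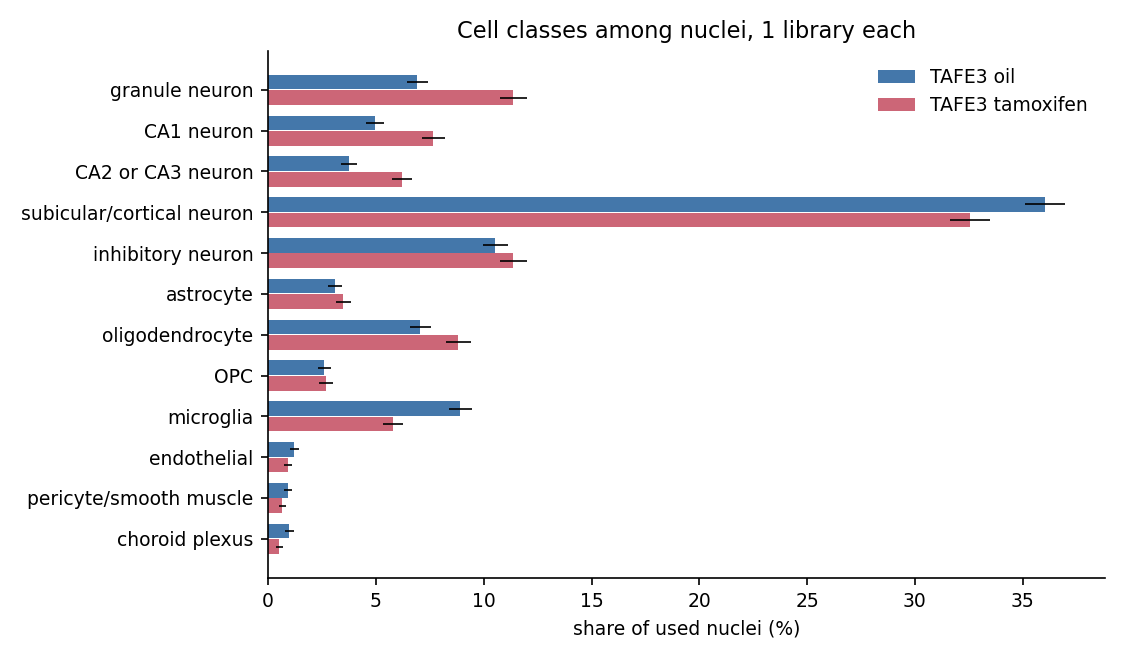
Share of used nuclei (percent, bars from 0) in 12 classes with oil (blue) and with tamoxifen (red), with exact 95% intervals for counting error. The 3 hippocampal excitatory classes are higher with tamoxifen (together 15.7% and 25.2%), and microglia are lower within the mitochondrial limit (8.92% and 5.80%).

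In astrocytes, 73 of 2399 genes with at least 100 UMIs stood at least 1.5-fold higher with tamoxifen (3.04%) and 46 at least 1.5-fold lower (1.92%). The 8 genes ranked highest follow, from a ranking open only to genes at least as high in astrocytes as in the remaining nuclei. Mfge8, a secreted bridge between phosphatidylserine and phagocytes, stood at 447 CPM with oil and 711 CPM with tamoxifen (0.67 [0.47 to 0.87]), with 613 CPM in FE3. Agt, which encodes angiotensinogen, had 75.1 and 148 CPM (0.98 [0.51 to 1.47]). Slc6a11, the GABA transporter GAT-3, had 201 and 324 CPM (0.69 [0.39 to 0.99]). Hes5, a Notch target and transcriptional repressor, had 175 and 299.7 CPM (0.78 [0.46 to 1.10]), and Plxnb1, a semaphorin receptor, 176 and 289.7 CPM (0.72 [0.40 to 1.04]). Abhd3, a phospholipase of medium-chain phospholipids, had 215 and 389.6 CPM (0.86 [0.57 to 1.15]), and Dfna5, which encodes gasdermin E, 211 and 365 CPM (0.79 [0.50 to 1.08]). Ptgds, prostaglandin D2 synthase, had 1391 and 1974 CPM (0.51 [0.39 to 0.62]), but it is also abundant in meninges, and its log2 ratio was -0.13 with doublets kept and nuclei clustered again.

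Cryab and Vim were among the genes ranked lowest in astrocytes. Cryab, a small heat shock protein, stood at 223 CPM with oil, 121 CPM with tamoxifen and 45.5 CPM in FE3 (-0.88 [-1.27 to -0.49]). Vim, the intermediate filament vimentin, stood at 593, 414 and 62.8 CPM in the same order (-0.52 [-0.74 to -0.30]). For both genes the tamoxifen library lay between the tau library with oil and the mice without tau. Cryab was not particular to astrocytes, since it was also lower in microglia (-0.80) and oligodendrocytes (-0.82). Oligodendrocyte markers in astrocyte nuclei were lower too (-0.62), and their part in the Cryab value was not tested. Nfkbia, the inhibitor of NF-kappaB, had 107 and 59.9 CPM (-0.84 [-1.41 to -0.29]), and Vdac1, a pore of the mitochondrial outer membrane, 180 and 117 CPM (-0.62 [-1.03 to -0.22]). Hnrnpa0, Kdsr, Stxbp3a and Yam1 completed the set, with log2 ratios of -0.82, -0.73, -0.74 and -0.25. Over its 9 alternatives Vim ranged from -0.59 to -0.25. Without the mitochondrial limit and with nuclei clustered again, Nfkbia had -0.065, Vdac1 -0.082, Hnrnpa0 -0.17, Stxbp3a -0.032 and Kdsr -0.33, under the 1.5-fold call. Cryab kept -0.77 there. In the same setting Slc6a11 had 0.34 and Plxnb1 0.34 among the higher genes, and in nuclei thinned to 1000 UMIs Mfge8 had 0.48. The lowest values over the alternatives were 0.48 for Hes5 and 0.57 for Dfna5, also under 1.5-fold. In the APOE4 pair 7 of these 16 genes had the same sign, 3 of them with an interval that leaves out 0. Vim (-0.42), Cryab (-0.59) and Vdac1 (-0.60) were those 3, whereas Mfge8 (-0.10), Agt (-0.07) and Slc6a11 (-0.30) were not higher there and Ptgds was lower (-0.55). The differences between the pairs were not tested.

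Among 30 homeostatic astrocyte genes all 30 passed the filter on low counts, and 24 were higher and 6 lower with tamoxifen, with a median log2 ratio of 0.22 beside 0.03 over all genes. Only 2, Slc6a11 and Bmpr1b, passed 1.5-fold. The glutamate transporter Slc1a2 had 6806 and 7516 CPM (0.14 [0.09 to 0.20]) and Slc1a3 1779 and 2091 CPM (0.23 [0.13 to 0.34]). The water channel Aqp4 went the other way, with 666 and 577 CPM (-0.21 [-0.40 to -0.02]). The same list was also higher in other classes. Medians were 0.16 to 0.30 in the 5 neuronal classes other than Cajal-Retzius and 0.40 in oligodendrocyte precursors. The part of free RNA in these values was not tested.

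Of 40 reactive astrocyte genes 23 passed the filter, and 6 were higher and 17 lower, with a median of -0.27 and a summed level of 5422 CPM with oil, 4881 CPM with tamoxifen and 1692 CPM in FE3 (-0.15 [-0.22 to -0.09]). Of the 10 members with at least 100 UMIs, 1 was past 1.5-fold, Cryab. Gfap, the astrocyte filament protein that defines gliosis, had 1857 CPM with oil, 1656 CPM with tamoxifen and 320.4 CPM in FE3 (-0.17 [-0.28 to -0.05]). Serpina3n, a protease inhibitor of reactive glia, had 106 and 95.6 CPM, and C4b, a complement component, 649 and 716 CPM, with intervals that include 0. Id3 was higher, with 625 and 795 CPM (0.35 [0.17 to 0.52]). Some scarce members differed more. C3, the central complement component, had 32 UMIs with oil, 8 with tamoxifen and 0 in FE3, or 41.4 and 11.4 CPM (-1.86 [-3.19 to -0.71]). S1pr3, a sphingosine phosphate receptor, had 42.7 and 15.7 CPM (-1.44 [-2.58 to -0.42]), and Cd44, a hyaluronan receptor, 42.7 and 21.4 CPM (-1.0 [-1.98 to -0.08]). In the APOE4 pair C3 had 0.49 and S1pr3 0.35, with intervals that include 0.

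Genes by which astrocytes organise and engulf synapses were mostly higher. Of 27 such genes 21 passed the filter and 15 were higher, with a median of 0.32 and 1 of 13 tested members, Mfge8, past 1.5-fold. The synapse-forming Sparcl1 had 1711 and 2131 CPM (0.32 [0.21 to 0.42]) and the glypican Gpc5 183 and 267 CPM (0.55 [0.22 to 0.87]). The engulfment receptor Mertk had 237 and 194 CPM (-0.29 [-0.62 to 0.04]), while its relative Axl had 40.1 and 68.5 CPM (0.77 [0.09 to 1.47]).

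With APOE itself kept off the list, genes of lipoprotein and lipid transport were 21 higher and 5 lower of 26 used, with a median of 0.23 and a sum of 5224 and 5800 CPM (0.15 [0.09 to 0.21]). Past 1.5-fold were 3 of 15 tested members. Cyp46a1, which hydroxylates cholesterol for export from the brain, had 72.5 and 124 CPM (0.78 [0.28 to 1.29]), the lipid transporter Abca3 58.3 and 89.9 CPM (0.63 [0.05 to 1.21]) and the fatty acid carrier Fabp7 119 and 181 CPM (0.61 [0.21 to 1.01]). Apoc1, a neighbour of Apoe, was scarce, with 9.07 and 49.9 CPM (2.46 [1.27 to 3.88]). Clu, the other abundant apolipoprotein of astrocytes, had 2919 and 3124 CPM (0.10 [0.01 to 0.18]) and Abca1, which loads lipid onto APOE, 216 and 245 CPM (0.18 [-0.13 to 0.50]). Apod was lower, with 247 and 178 CPM (-0.47 [-0.81 to -0.14]). Cholesterol synthesis genes showed no shift as a group, at 1335 and 1342 CPM (0.01 [-0.12 to 0.14]), with 14 higher and 9 lower and 0 past 1.5-fold.

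Markers of other cells in astrocyte nuclei also differed between the libraries. Myelin genes, which belong to oligodendrocytes, were lower in 24 of 27 members and summed to 3094 and 2168 CPM (-0.51 [-0.61 to -0.42]). The 12 oligodendrocyte markers summed to 2435 and 1583 CPM, the 15 microglia markers to 896 and 802 CPM, the 7 choroid plexus markers to 1371 and 921 CPM and the 6 striatal markers to 234 and 88.5 CPM, with Drd2 at 0 in both libraries. The interval of the microglia sum includes 0 (-0.16 [-0.32 to 0.00]), and the other 3 sums were lower with tamoxifen. Other sets stood higher, the 9 markers of pericytes or smooth muscle at 254 and 321 CPM (0.34 [0.06 to 0.62]) and the 9 of leptomeningeal fibroblasts at 124 and 178 CPM (0.52 [0.13 to 0.92]). Their part in the astrocyte results was not tested. Heat shock and chaperone genes were 9 higher and 13 lower, with a sum of 3338 and 2803 CPM (-0.25 [-0.34 to -0.17]), and the APOE4 pair had -0.47. MHC class I genes summed to 935 and 1173 CPM (0.33 [0.18 to 0.47]), with H2-D1 at 241 and 349.7 CPM, and the APOE4 pair had 0.89. Estrogen receptors and targets, a list that a tamoxifen effect on its receptor could touch, had a sum of 1099 and 1090 CPM (-0.01 [-0.15 to 0.13]) and 0 of 4 tested members past 1.5-fold. An effect of the drug was not tested by this list.

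**Figure D4:**
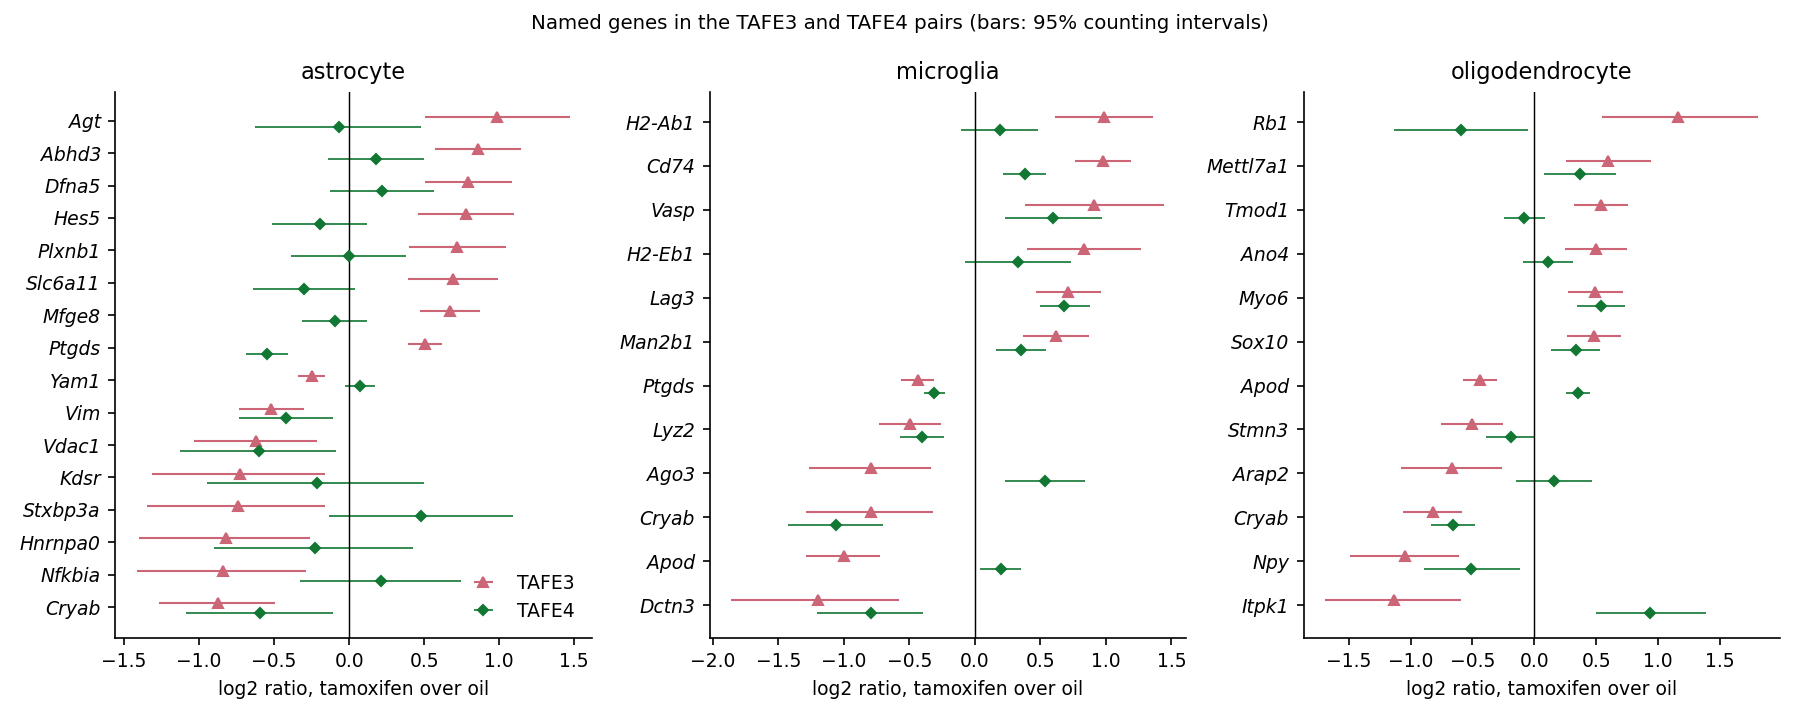
Genes ranked highest and lowest in astrocytes, microglia and oligodendrocytes, as log2 of tamoxifen over oil with 95% intervals, for the APOE3 pair (red triangles) and the APOE4 pair (green diamonds). Agt (0.98) and Mfge8 (0.67) in astrocytes have APOE4 values near 0 (-0.07 and -0.10), while Cryab lies below 0 in both pairs in all 3 classes.

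In microglia, 63 of 3180 tested genes stood at least 1.5-fold higher with tamoxifen (1.98%) and 71 at least 1.5-fold lower (2.23%). Genes of MHC class II, which presents antigen to helper T cells, led the higher side. Microglia turn this set on together through the CIITA coactivator, which is held at promoters by factors on the X and Y boxes. The promoters of 2 of them, H2-Aa and H2-Eb1, are shown because the Y box letters CTGATTGG (in capitals) lie in both. Each sequence gives the 250 bases before the gene's start, 5′ to 3′ on the gene's strand, from RefSeq on GRCm38.p6, and the match begins 51 bases before the start in H2-Aa, at chr17:34287824-34288073 (minus strand), and 62 bases before it in H2-Eb1, at chr17:34305617-34305866 (plus strand).
H2-Aa: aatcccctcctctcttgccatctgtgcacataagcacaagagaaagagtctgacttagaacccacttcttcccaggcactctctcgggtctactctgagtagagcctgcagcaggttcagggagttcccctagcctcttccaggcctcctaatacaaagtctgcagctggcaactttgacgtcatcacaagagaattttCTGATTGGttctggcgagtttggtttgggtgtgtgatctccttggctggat
H2-Eb1: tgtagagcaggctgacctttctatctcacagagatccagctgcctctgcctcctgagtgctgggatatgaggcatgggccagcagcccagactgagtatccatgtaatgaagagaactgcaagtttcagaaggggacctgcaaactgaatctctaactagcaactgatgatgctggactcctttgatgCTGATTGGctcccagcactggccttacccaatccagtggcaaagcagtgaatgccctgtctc
Of 9 listed class II genes 6 were matched to a promoter, and 3 held the letters on either strand, the third being H2-Oa. The matched promoters of H2-DMa, H2-DMb1 and H2-Ob lacked the letters, and Cd74 and H2-Ab1 were not matched. Among all 32851 promoters 1258 did (3.83%). A match describes letters and shows no binding.

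Of the 9 class II genes 6 passed the filter, and all 4 with at least 100 UMIs were past 1.5-fold. Cd74, the invariant chain that guides class II molecules, stood at 325 CPM with oil (351 UMIs), 640.4 CPM with tamoxifen (392 UMIs) and 37.9 CPM in FE3, a log2 ratio of 0.98 [0.77 to 1.19]. H2-Ab1 had 106 and 209 CPM (0.98 [0.61 to 1.36]), H2-Eb1 83.4 and 149 CPM (0.83 [0.40 to 1.27]) and H2-Aa 64.0 and 98.0 CPM (0.62 [0.09 to 1.14]). The scarcer H2-DMb1, a chain of the peptide exchanger, had 29.7 and 52.3 CPM and H2-DMa 52.8 and 52.3 CPM. Together they summed to 680 CPM with oil and 1225 CPM with tamoxifen (0.85 [0.70 to 1.00]), and the APOE4 pair had 0.28 [0.17 to 0.40]. Markers of border macrophages, which also carry class II, summed to 189 and 181 CPM in these nuclei, with F13a1, Lyve1 and Pf4 at 0 in both libraries. Without the mitochondrial limit, which left out more microglia with tamoxifen, and with nuclei clustered again, the class II ratio was 0.63 and that of H2-Eb1 0.57.

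Others on the higher side were Lag3, a receptor for MHC class II, with 266 and 436 CPM (0.71 [0.47 to 0.96]), the actin regulator Vasp with 55.6 and 105 CPM (0.91 [0.38 to 1.44]) and the lysosomal mannosidase Man2b1 with 268 and 412 CPM (0.62 [0.37 to 0.87]). The APOE4 pair had 0.68 for Lag3, 0.60 for Vasp and 0.35 for Man2b1. Thinned nuclei gave 0.47 for Lag3 and 0.30 for Man2b1, under 1.5-fold. MHC class I genes were 15 higher and 2 lower of 17, with a sum of 3070 and 3612 CPM (0.23 [0.16 to 0.31]) and Tap1, a peptide transporter, at 43.6 and 81.7 CPM. Interferon response genes were 26 higher and 6 lower of 32, with a median of 0.34, 0 of 7 tested members past 1.5-fold and a sum of 1463 and 1668 CPM (0.19 [0.07 to 0.30]). In the APOE4 pair the interferon sum had 1.20 [1.12 to 1.28]. The integrin Itgam, a complement receptor chain, had 160 and 253 CPM (0.66 [0.34 to 0.98]).

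On the lower side, Apod had 439 and 219 CPM (-1.0 [-1.29 to -0.72]), Dctn3, a dynactin subunit, 101.1 and 44.1 CPM (-1.20 [-1.86 to -0.58]), Ago3 150.2 and 86.6 CPM (-0.79 [-1.27 to -0.34]) and Cryab 139 and 80.0 CPM (-0.80 [-1.29 to -0.32]). Lyz2, lysozyme of activated myeloid cells, had 472 CPM with oil, 335 CPM with tamoxifen and 18.9 CPM in FE3 (-0.49 [-0.74 to -0.26]). Ptgds, with 1590 and 1173 CPM (-0.44 [-0.57 to -0.31]), and Apod are abundant in other cells of the brain. Of the 12 named microglial genes 10 had the same sign in the APOE4 pair, 8 with an interval that leaves out 0. The exceptions were Apod (0.20) and Ago3 (0.53). Without the mitochondrial limit and with nuclei clustered again, Dctn3 had -0.51 and Ago3 -0.27, under 1.5-fold.

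Disease-associated microglia genes showed no shift as a group. Of 39 used, 22 were higher and 17 lower, with a median of 0.00, and their sum was 14176 CPM with oil, 14570 CPM with tamoxifen and 5080 CPM in FE3 (0.04 [0.00 to 0.08]). Single members went both ways. Trem2, the lipid-sensing receptor on which this state depends, had 871 and 1021 CPM (0.23 [0.08 to 0.38]), Itgax 87.1 and 134 CPM (0.62 [0.17 to 1.06]) and Spp1 532 and 639 CPM (0.26 [0.07 to 0.45]). Cd68, a lysosomal glycoprotein, had 239 and 181 CPM (-0.40 [-0.73 to -0.07]) and Cd63 568 and 454 CPM (-0.32 [-0.53 to -0.12]). Cst7 and Clec7a had 66.8 and 62.1 CPM and 59.3 and 55.5 CPM, with intervals that include 0. Homeostatic microglia genes were 24 higher and 7 lower of 31, with a median of 0.14. Among them Slco2b1, a transporter, had 145 and 224 CPM (0.63 [0.29 to 0.97]) and Tgfbr1 766 and 939 CPM (0.29 [0.14 to 0.45]), while Tmem119 had 74.2 and 70.2 CPM and P2ry12, an ADP receptor, 62.1 and 83.3 CPM. Lysosome and phagocytosis genes were 19 higher and 15 lower, with 0 of 30 tested members past 1.5-fold. As in astrocytes, myelin genes in microglia were lower, at 2782 and 1828 CPM (-0.61 [-0.71 to -0.51]).

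**Figure D5:**
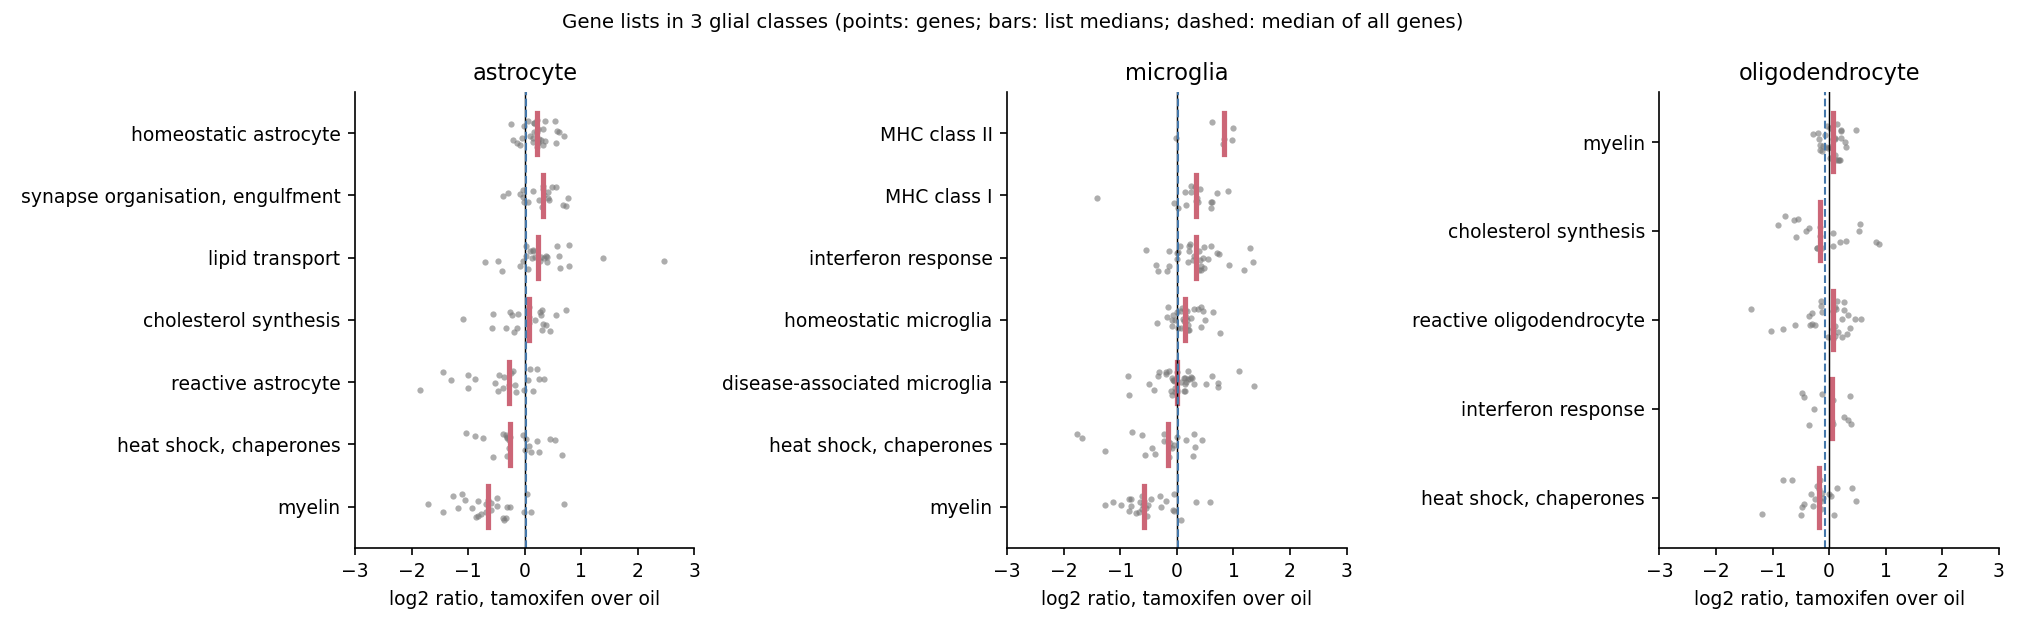
Log2 of tamoxifen over oil for the members of each gene list in astrocytes, microglia and oligodendrocytes (points), with the list median (red bar) and the median of all genes (dashed line). The 6 MHC class II members in microglia have a median of 0.83, the 23 reactive astrocyte genes one of -0.27 and the 39 disease-associated microglia genes one of 0.00.

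In oligodendrocytes, the myelinating glia, 27 of 2977 tested genes were at least 1.5-fold higher (0.907%) and 93 at least 1.5-fold lower (3.12%). The split changed with the scaling, since TMM factors gave 52 higher and 58 lower. Myelin genes were 18 higher and 11 lower of 29 with 0 past 1.5-fold, and their sum was 19353 and 20408 CPM (0.08 [0.05 to 0.11]). Mbp, a main protein of the sheath, had 3186 and 3535 CPM (0.15 [0.08 to 0.22]). Sox10, the transcription factor that maintains the lineage, had 338 and 471 CPM (0.48 [0.26 to 0.70]), and 0.33 in the APOE4 pair. Rb1, the retinoblastoma protein, had 36.4 and 81.6 CPM (1.16 [0.55 to 1.81]), and Tmod1, Myo6, Mettl7a1 and Ano4 had log2 ratios of 0.54, 0.49, 0.60 and 0.50.

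The lower oligodendrocyte genes were led by Npy, Itpk1 and Cryab. Itpk1, an inositol phosphate kinase, had 102 and 46.8 CPM (-1.13 [-1.69 to -0.59]). Cryab, which these cells express most, had 459.8 CPM with oil, 260.1 CPM with tamoxifen and 244 CPM in FE3 (-0.82 [-1.06 to -0.59]), and -0.66 in the APOE4 pair. Apod had 1108 and 817 CPM (-0.44 [-0.58 to -0.30]), and Arap2 and Stmn3 had log2 ratios of -0.67 and -0.50. Reactive oligodendrocyte genes, a state marked by C4b, were 18 higher and 13 lower with a sum of 9212 and 9367 CPM (0.02 [-0.02 to 0.07]). C4b itself stood at 789.8 CPM with oil, 824 CPM with tamoxifen and 65.4 CPM in FE3, so both tau libraries stood far above the mice without tau. Klk6, a protease of this state, was scarcer, with 70.6 and 27.2 CPM (-1.37 [-2.11 to -0.68]). Heat shock and chaperone genes were 5 higher and 17 lower, at 3900 and 3145 CPM (-0.31 [-0.38 to -0.24]). Neuronal transcripts, which these cells should largely lack, were also lower in these nuclei, at 8330 and 7059 CPM (-0.24 [-0.29 to -0.19]).

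Oligodendrocyte precursors had 30 of 1083 tested genes at least 1.5-fold higher (2.77%) and 20 lower (1.85%). Cspg4, the NG2 proteoglycan that marks these cells, had 338 and 602 CPM (0.83 [0.51 to 1.15]). Wscd1 and Rgcc had log2 ratios of 0.99 and 0.95, and Stmn4, Meis2 and Stmn3 of -0.99, -0.98 and -0.81 (Meis2 -0.35 with doublets kept and nuclei clustered again). Of the 6 genes, 2 had the same sign in the APOE4 pair.

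Among hippocampal neurons 138 of 6696 tested genes were at least 1.5-fold higher (2.06%) and 55 lower (0.821%) in granule neurons. In CA1 neurons 111 of 6150 were higher (1.8%) and 72 lower (1.17%), and in CA2 or CA3 neurons 105 of 6346 were higher (1.65%) and 54 lower (0.851%). The highest-ranked gene in CA1 neurons was Egr4, an activity-induced transcription factor, with 47.6 CPM with oil, 88.5 CPM with tamoxifen and 41.4 CPM in FE3 (0.90 [0.54 to 1.27]). Arc, the synaptic immediate early gene, had 89.3, 145 and 88.5 CPM in that order (0.70 [0.43 to 0.97]). In the APOE4 pair Egr4 had 0.69 and Arc 0.80. These values depended on the settings. Egr4 had 0.16 and Arc 0.35 with the 2 libraries clustered alone, and 0.044 and 0.27 at a limit of 1% mitochondrial UMIs. When clustered alone, an unnamed cluster led by Hspa1a, Egr4 and Fos, with Arc among its top genes, held 163 and 214 nuclei. Its part in the CA1 values was not tested. Immediate early genes were 21 higher and 8 lower of 29 in CA1 neurons, with 4 of 20 tested members past 1.5-fold upward and 1 downward, the clock gene Per1 at 64.2 and 37.0 CPM. Their sum in CA1 neurons was 1481 and 1607 CPM (0.12 [0.05 to 0.19]), but it was -0.05 when the 2 libraries were clustered alone. In granule neurons the immediate early sum was 1042 and 1070 CPM and in CA2 or CA3 neurons 967 and 983 CPM, with intervals that include 0.

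Further CA1 genes were Ahr (0.99, but 0.26 at the 1% limit) and Crym (0.69, but 0.35 there) on the higher side and the laminin receptor chain Itga7 (-1.30), the ephrin receptor Epha10 (-0.80) and the guidance receptor Robo3 (-0.83) on the lower. Granule neurons had the sodium channel Scn9a (1.19), the GDNF receptor Gfra1 (1.05), Spint2 (1.20) and the cadherin Cdh9 (0.78) on the higher side. Inf2 (-0.59), Sin3b (-0.62), Dnajb5 (-0.61) and the glucocorticoid receptor partner Fkbp5 (-0.62, but 0.05 in nuclei thinned to 1000 UMIs) were lower there. CA2 or CA3 neurons had Col5a2 (1.03, but -2.31 without the mitochondrial limit and with nuclei clustered again), Ighmbp2 (1.06), Sirt6 (0.77) and Slc24a5 (0.54) on the higher side, and Lman2 (-0.75), Ephb1 (-0.92), Klhl26 (-0.76) and Sh3bp5l (-0.72) on the lower. Other genes of these classes also came under 1.5-fold in an alternative. Their weakest values were 0.53 for Gfra1, -0.46 for Inf2, -0.45 for Sin3b and -0.45 for Dnajb5. Sirt6 came to 0.55, Klhl26 to -0.21 and Epha10 to -0.58. Presynaptic and postsynaptic genes stayed close to level, with sums between 0.03 and 0.09 in the 3 classes and 0 members past 1.5-fold.

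Inhibitory neurons had 93 of 8763 tested genes at least 1.5-fold higher (1.06%) and 104 lower (1.19%). Npy, a neuropeptide of hippocampal and cortical interneurons, stood at 486 CPM with oil, 272 CPM with tamoxifen and 232 CPM in FE3 (-0.84 [-0.95 to -0.73]), and -0.40 in the APOE4 pair. Of 5737 genes with at least 100 UMIs in 5 or more classes, only Npy was past 1.5-fold one way in every such class. Npy reached 100 UMIs in 6 classes, with log2 ratios of -1.04 to -0.61, and over all used nuclei it had 115 and 64.0 CPM. Pvalb, the calcium buffer of fast-spiking cells, had 80.6 and 41.4 CPM (-0.96 [-1.24 to -0.68]), and 0.00 in the APOE4 pair. Syt2, their vesicle calcium sensor, had 42.5 and 23.6 CPM (-0.85 [-1.23 to -0.47]). Ratios taken within the 2 inhibitory clusters and weighted over them by UMI totals gave -0.83 for Npy and -0.93 for Pvalb. Shares of cell types within a cluster were not separated. The transcription factor Tshz3 (-0.99) and Gfod2 (-1.33) were also lower, and Baiap3 (1.25), Col5a2 (0.96), Moxd1 (0.89) and the semaphorin receptor Nrp2 (0.74) higher. Thinned nuclei gave -0.56 for Gfod2 and 0.28 for Col5a2.

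Subicular or cortical excitatory neurons had the most called genes by number, 409 of 11492 higher (3.56%) and 216 lower (1.88%). They also had the most tested genes, and some classes had larger shares, such as endothelial nuclei (4.59% and 4.47%). The lowest-ranked were genes of particular cortical clusters, the cortical transcription factor Rorb with 289 and 83.6 CPM (-1.79 [-1.90 to -1.68]), Cpne9 (-1.63), Adam33 (-1.44) and Exph5 (-1.52). Since the clusters differed in share, ratios were also taken within clusters and weighted over them. This gave -1.38 for Rorb, -1.43 for Cpne9, -1.38 for Adam33 and -1.17 for Exph5, but shares of cell types within a cluster were not separated. With the 2 libraries clustered alone, a cluster led by Rorb held 1341 nuclei with oil and 358 with tamoxifen. Adam33, Exph5 and Cpne9 were among its top genes, and an unnamed cluster led by Fermt1 held 133 and 274. On the higher side Baiap3 had 4.57 and 29.9 CPM (2.71 [2.29 to 3.16]) and 2.60 within clusters, Fermt1 1.55 and 2.0, Arhgap6 1.55 and 1.53 and the huntingtin partner Hap1 1.18 and 0.95. Immediate early genes were 26 higher and 7 lower of 33, with 5 of 30 tested members past 1.5-fold and a sum of 1499 and 1805 CPM (0.27 [0.24 to 0.30], and 0.32 within clusters). Fos had 17.3 and 32 CPM (0.89 [0.64 to 1.15]) and Egr4 28.6 and 55.3 CPM (0.95 [0.75 to 1.15]). The APOE4 pair differed in sign for both, with -0.72 for Fos and -0.97 for Egr4. When in the handling of the tissue these fast genes were set was not tested.

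Vascular and barrier cells were few. Endothelial nuclei, 128 with oil and 90 with tamoxifen, had 38 of 828 tested genes higher (4.59%) and 37 lower (4.47%). Mgp, an inhibitor of calcification made by arterial cells, had 495 and 126 CPM (-1.98 [-2.55 to -1.44]), and -0.56 in the APOE4 pair. Neat1 and Enpp2 had log2 ratios of -1.15 and -1.18. Without the mitochondrial limit and with nuclei clustered again these 3 had -0.65, -0.64 and -0.50. On the higher side were Gstm5, Nnat and Pla2g7, at 1.00, 1.02 and 0.85. Haemoglobin and other blood genes in these nuclei summed to 4678 CPM with oil and 1103 CPM with tamoxifen, and their part in the endothelial values was not tested. Pericytes or smooth muscle cells had 7 of 119 genes called in each direction (5.88%), with Ddx5 at 0.49 and Mt1, Ptgds and Aldoa at -0.89, -0.50 and -0.76 (Mt1 -0.081 without the limit, clustered again). The choroid plexus, the epithelium that secretes cerebrospinal fluid, had 14 of 450 higher (3.11%) and 20 lower (4.44%), with Hmgn3, Ankrd12 and Tnrc6b at 0.71, 0.75 and 0.79 and Cox5b, Mast4 and Enpp2 at -0.96, -0.69 and -0.38. The cluster named Cajal-Retzius had 17.2% of 1224 genes called higher and 3.27% lower. Its genes are not listed because its nuclei, 59 and 211, changed with the settings.

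Some gene groups moved in nearly every class and give the scale of differences between whole libraries. Mitochondrially encoded genes were higher with tamoxifen by 0.05 to 0.51 in the 13 classes and lower in all 13 in the APOE4 pair. Ribosomal protein genes were higher by 0.19 to 0.33 in 10 classes, near level in choroid plexus and pericytes and lower in endothelial nuclei (-0.15). Myelin genes were lower in neurons, with medians of -0.66 to -0.32 in the 5 classes other than Cajal-Retzius. These shifts are of the size of the list medians in astrocytes, 0.22 to 0.32, and of their reactive genes, -0.27, and below the MHC class II median in microglia, 0.83. The blood list moved by more, 1.10 to 1.77 in astrocytes, granule, inhibitory and CA2 or CA3 neurons, at 52.8 CPM or less. Their part in the list values was not tested.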

How the data were processed

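The deposited UMI counts per gene and nucleus came from droplet libraries of brain nuclei. Per the file headers they were made with Cell Ranger 3.1.0, and mm10 and Seurat are named, per the submitters' processing notes, without a role. The series design names both 3′ ends and 5′ kits, so strand and position of the reads are not settled here. Counts rest on 14885 barcodes with oil and 14762 with tamoxifen.

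From the counts, scrublet scored doublets library by library, and the top 0.8% per 1000 nuclei was removed. Nuclei of all libraries were clustered with scanpy 1.11.5 (2000 variable genes, 30 components, 15 neighbours, Leiden resolution 1, leidenalg 0.10.2). Classes were named from a table of markers, and the thresholds for a name were set after the clusters were seen. UMIs were summed per class and library. Intervals are exact (Poisson for levels, conditional binomial for ratios, Clopper-Pearson for shares), at 95%, and cover counting error only. With 1 library a group no statistical test was run and no p-value is given. Counts under 3 were set to a floor of 3. Genes that reached 100 UMIs in both libraries together are the tested genes of the text, and were called at 1.5-fold. List members needed at least 20 UMIs and 3 CPM in either library. The scripts were tested on simulated data. The members and gene lists, and the comparison itself, were chosen with earlier results of these data known.

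To be named, a gene had to reach 100 UMIs, 20 CPM on its higher side, and a level in the class that matched or exceeded that in the remaining nuclei, with an interval without 0. Candidates were ranked by the bound nearest 0. Mitochondrial, ribosomal, sex-linked and haemoglobin genes, APOE, unnamed gene models and other classes' markers did not enter that ranking. The first 8 in each direction were named in astrocytes, 6 in microglia and oligodendrocytes, 4 in neuronal classes and 3 in the others, fewer where fewer passed. List members named in the text were chosen after their values were seen. Alternatives changed the mitochondrial limit, depth, doublets, resolution, the clustering of both libraries alone, the scaling (TMM factors from edgeR 4.0.16, R 4.3.3, and median of ratios) and thinning. Nuclei were clustered again where the 5% limit was dropped or doublets were kept.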

Additional observations from a re-analysis of the deposited data

Results flagged for a closer look

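The following values stood at least 1.5-fold apart from 1 in opposite directions in the APOE3 pair and the APOE4 pair, with counting intervals that leave out 0 in both. All are log2 ratios of tamoxifen over oil, and none of the differences between the pairs was tested, since each pair has 1 library a side. Among named genes, Robo3 in CA1 neurons had -0.83 with APOE3 and 0.66 with APOE4. Fkbp5 in granule neurons had -0.62 and 0.79. In oligodendrocytes Rb1 had 1.16 and -0.59, and Itpk1 had -1.13 and 0.93. Baiap3 in subicular or cortical excitatory neurons had 2.71 and -1.66.

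Among shares of nuclei, the cluster named Cajal-Retzius had 1.93 with APOE3 and -0.76 with APOE4. T cells had -2.08 and 1.37 and choroid plexus -0.93 and 2.46. Choroid plexus nuclei numbered 104 and 51 in the APOE3 pair and 11 and 66 in the APOE4 pair. The 11 lie under the 50 nuclei asked of a compared class. The top genes of the cluster named Cajal-Retzius began with Col6a3 and Zic1, ahead of the markers Ndnf and Lhx1. With the APOE3 pair clustered alone, an unnamed cluster led by Col6a3 held 23 and 135 nuclei. Cajal-Retzius nuclei depended on the clustering. At resolution 0.5 they numbered 26 and 39 in the APOE3 pair and 40 and 82 in the APOE4 pair, higher with tamoxifen in both. T cells numbered 18 and 4 in the APOE3 pair. Without the mitochondrial limit, and with nuclei clustered again, they were 0.435% and 0.315% of nuclei there and 0.427% and 0.473% in the APOE4 pair, under 1.5-fold in both.

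The blood list, haemoglobin genes for the most part, had 1.77 and -1.42 in CA2 or CA3 neurons, 1.44 and -1.85 in astrocytes, 1.51 and -0.75 in granule neurons and 1.10 and -1.05 in inhibitory neurons. In astrocytes these are levels of 19.4 CPM with oil and 52.8 CPM with tamoxifen. Neuronal transcripts in choroid plexus nuclei had 0.70 and -1.0, the latter with 11 nuclei on the oil side.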

How the results depend on the processing

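With 1 library a group, no library could be left out. No paired analysis was possible because each group has 1 library. The log2 ratio of APOE in astrocytes lay between -1.91 and -1.62 in the 9 alternatives run on it, and that of MHC class II genes in microglia between 0.63 and 1.15. Neither was run at a limit of 1% mitochondrial UMIs, which was applied to neuronal classes and to shares. Among results whose interval left out 0, the sign was kept by 98 of 102 named genes, 25 of 30 list sums, 9 of 11 shares and 10 of 10 APOE and Apoe values. Where the interval included 0 it was kept by 3 of 12 list sums, 1 of 3 shares and 1 of 2 APOE and Apoe values. Of 87 named genes past 1.5-fold, 44 came under it in some alternative, 27 of them without the mitochondrial limit and 22 in thinned nuclei. Nuclei were clustered again where that limit was dropped or doublets were kept, so each of these changes 2 choices at once. The share of all used nuclei in a named class was taken as a denominator after the data were seen. Causes of the changes below were not tested.

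Among results whose interval left out 0, these turned. Immediate early genes in CA1 neurons had -0.054 with both libraries clustered alone, postsynaptic genes -0.012 in granule neurons by median of ratios and, in subicular or cortical neurons, -0.049 by TMM and -0.051 by median of ratios, and presynaptic genes there 0.017 within clusters. Disease-associated genes in microglia had -0.0096 without the mitochondrial limit, -0.017 clustered alone and -0.011 by TMM. Among genes, Col5a2 in CA2 or CA3 neurons had -2.31 and Enpp2 in choroid plexus 0.068 without the limit, Ptgds in astrocytes -0.13 with doublets kept and Fkbp5 in granule neurons 0.050 thinned. Shares at a limit of 1% mitochondrial UMIs had -1.38 for oligodendrocytes and 0.064 for endothelial nuclei.

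Without the mitochondrial limit, APOE in astrocytes had -1.91, homeostatic astrocyte genes 0.13, reactive astrocyte genes -0.043, MHC class II genes 0.63, the microglia share -0.031 and the oligodendrocyte share 0.53. Counts of genes higher were then 173 (CA1 neurons), 122 (astrocytes), 97 (microglia) and 44 (oligodendrocytes), and 132 were lower in microglia. At a limit of 1%, shares had 0.82 for hippocampal classes, -0.32 for subicular or cortical neurons, -1.08 for microglia and -1.14 for astrocytes, with 54 genes higher in CA1 neurons and 41 higher and 29 lower in granule neurons. Clustered alone, reactive astrocyte genes had -0.069, MHC class II genes 0.70 and the subicular or cortical share -0.24. At resolution 0.5 the hippocampal share had 0.78, the subicular or cortical share -0.26 and reactive oligodendrocyte genes 0.077. Over nuclei in a named class the 2 shares had 0.59 and -0.24. With at least 1000 UMIs a nucleus, MHC class II genes had 1.15, disease-associated genes 0.10, with 33 genes lower in microglia and 15 higher and 47 lower in oligodendrocytes. With doublets kept, homeostatic astrocyte genes had 0.16 and 41 genes were higher in oligodendrocytes.

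Other scalings gave homeostatic astrocyte genes 0.17 (median of ratios) and reactive oligodendrocyte genes 0.083 (TMM) and 0.089 (median of ratios), with 52 and 54 genes higher and 58 and 56 lower in oligodendrocytes. Thinned nuclei gave reactive oligodendrocyte genes -0.050, with 60 genes higher and 24 lower in CA1 neurons, 29 and 8 for astrocytes, 18 and 11 for microglia, 36 lower in granule neurons and 28 lower in oligodendrocytes. Unthinned, 90.4% of tamoxifen astrocytes held an APOE UMI. With a minimum of 20 UMIs and 3 CPM in place of 100 UMIs, counts higher and lower were 653 and 587 for CA1 neurons, 896 and 847 for astrocytes, 820 and 544 for granule neurons, 852 and 929 for microglia and 564 and 1005 for oligodendrocytes.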

Other observations

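Several gene groups of stress and metabolism stood near 0, unlike heat shock genes, which had -0.31 in oligodendrocytes and -0.25 in astrocytes. Genes of the unfolded protein and integrated stress response had summed log2 ratios of tamoxifen over oil between -0.08 and 0.21 in the 13 classes. The highest was in subicular or cortical excitatory neurons, where 20 members were higher and 7 lower, at 1638 CPM with oil and 1893 CPM with tamoxifen (0.21 [0.18 to 0.24]). The median over all genes of that class was itself 0.09. Genes of the p53 and DNA damage response lay between -0.16 and 0.13. Nuclear genes of oxidative phosphorylation lay between -0.28 in pericytes and 0.10 in subicular or cortical neurons, while the mitochondrially encoded genes of the same complexes were higher in all 13 classes. Metallothionein and NRF2 genes lay between -0.23 and 0.21. Fatty acid synthesis and desaturation genes in astrocytes had 1950.2 and 2121 CPM (0.12 [0.02 to 0.23]), with 9 members on either side.

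Cryab had a log2 ratio below 0 in all 13 classes, with an interval that leaves out 0 in 9 of them. In inhibitory neurons it was -0.91 and in endothelial nuclei -1.15. Long nuclear RNAs, a group that includes Malat1 and Meg3, summed to 351614 CPM with oil and 308702 CPM with tamoxifen in subicular or cortical neurons (-0.19).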
